A study of Mus musculus with 8 samples.

Results

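The genes described here are those of mouse whose symbol is Zfp followed by a number, a naming series for zinc finger proteins. Members were the rows of the deposited table with such a symbol, Zfp36 left out, and a mean raw count of at least 150 over all 8 libraries. Of 359 Zfp-numbered genes in the table, 171 met the count limit. All 171 were tested, among 12618 genes tested of 17910 in the table. They were chosen by their symbol and by their mean raw count over all groups, so their level is a description and not a finding. Just inside the limit lay Zfp850 with a mean raw count of 155 and Zfp808 with 151, and just outside it lay Zfp61 with 149.9 and Zfp60 with 148.

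RNA came from wild-type mouse embryonic fibroblasts (MEFs), connective tissue cells bought from a cell bank and grown in culture. There were 4 groups of 2 libraries each. Cells were given SRT1720 at 0.2 µM and 30 min later RSL3 at 1 µM for 2 h, RSL3 alone, SRT1720 alone, or neither (control), and all carry the label of 2 h. RSL3 blocks the lipid peroxidase GPX4 and is used to start ferroptosis, in which oxidised membrane lipids kill a cell. SRT1720 is sold as an activator of the deacetylase SIRT1. No gene was deleted in any group, so no targeted gene checks the labels. Nothing in the labels says that the libraries of a group are separate cultures, so the p-values rest on a spread between libraries that may be only technical.

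Most Zfp proteins carry C2H2 zinc fingers, short loops held by a zinc ion, which stand in a row and read DNA bases. A large share of them begin with a KRAB box, a short domain that binds the corepressor TRIM28 (KAP1). TRIM28 brings in the methyltransferase SETDB1, heterochromatin proteins and deacetylases, and this machinery silences retroelements and keeps imprints. KRAB zinc finger genes have multiplied by tandem duplication, so many lie in clusters of close copies. Members without a KRAB box include transcription factors, RNA-binding proteins and ligases for ubiquitin or SUMO. A search of translated GENCODE M21 transcripts with a KRAB profile found the box in 71 of the 170 members with a coding sequence, and the other 99 gave no match. Divergent boxes were missed by this search: Zfp746 and Zfp263, described elsewhere as carrying one, count here among members without. Of the 171 members, 88 had deposited values that were not whole, as happens where reads are divided among similar genes, and their values are uncertain to that extent.

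The libraries held 20579122 to 21287620 counts, and members took 0.517% to 0.605% of them. Markers of fibroblasts were present in every library, with 10 of 10 tested and a summed level of 8633 to 13370 CPM. Of these 10, 4 were called higher with RSL3 against control (Pdgfra, Pdgfrb, Vim and Fn1), and 3 lower with both compounds against RSL3 (Col1a1, Col1a2 and Pdgfrb), with medians of 0.25 and -0.37. CPM are counts scaled to a common library total by TMM, which corrects for differences in library composition. Markers of macrophages summed to 3.54 to 16.0 CPM, of endothelium to 1.503 to 9.97 CPM, of epithelium to at most 1.11 CPM and of pluripotent cells to at most 0.315 CPM. The 3 neural markers summed to 214 to 269 CPM, nearly all of it from Nes and Tubb3, with Sox2 at 0.353 CPM or less. Tubb3 had 63.3 and 48.96 CPM in RSL3 cells, against 28.5 and 28.7 CPM in control cells (log2 fold change 0.97, edgeR adjusted p = 0.000342), and Nes fell by 0.51 (adjusted p = 0.00615). The markers of macrophages were 11.6 and 16.0 CPM in RSL3 cells, against 3.54 and 4.85 CPM in control cells, and those of endothelium 9.97 and 9.15 CPM with both compounds, against 4.835 and 3.74 CPM with RSL3 alone. The part of all these markers in the results below was not tested. Per kilobase of transcript, Zfp703 had the highest mean level of the members (82.6 CPM per kb), followed by Zfp598 (68.6) and Zfp207 (61.3), against a median of 5.22.

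RSL3 alone was set against control to ask which of these genes move within 2 h of GPX4 inhibition. With RSL3, 58 members fell and 27 rose (edgeR quasi-likelihood test, Benjamini-Hochberg adjusted p under 0.05 over all genes tested). As shares of the members these were 33.9% lower and 15.8% higher, where 17.5% of all genes tested were called lower and 18.3% higher. Calls in either direction made up 35.8% of all genes. The median log2 fold change of the members was -0.26, beside 0.01 over all genes. The libraries of the groups did not overlap, with RSL3 lower, in 93 members and, with RSL3 higher, in 40, where this held for 31.6% and 31.9% of all genes. At an unadjusted p under 0.05 stood 97 members, and 44.9% of all genes. A change of at least 2-fold was reached by 25 called members that fell and 7 that rose, of 171. Over all 12618 genes tested, 649 called genes fell and 753 rose by as much. In bulk RNA, fewer cells of a type and less RNA per cell cannot be told apart. Scaled by library size only, which puts the median of all genes at -0.27, 105 members were lower and 14 higher, with a median of -0.54. In that setting 37.1% of all genes tested were called lower and 9.67% higher.

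The 8 members with the largest falls were Zfp958, Zfp707, Zfp748, Zfp41, Zfp961, Zfp12, Zfp251 and Zfp866, all with a KRAB box except Zfp41. Zfp958, a KRAB protein with 13 fingers, had 2.52 and 1.37 CPM in RSL3 cells, against 11.5 and 9.42 CPM in control cells. The groups did not overlap, and the log2 fold change was -2.42 ± 0.25 (SE, n = 2 each; edgeR adjusted p = 6.72e-05). Zfp707, which has 8 fingers, had 4.15 and 2.58 CPM in RSL3 cells, against 17.7 and 16.1 CPM in control cells. Both RSL3 libraries lay far below both controls, with a log2 fold change of -2.32 ± 0.20 (edgeR adjusted p = 2.77e-05). Zfp748, a KRAB protein with 23 fingers, stood at 2.68 and 2.16 CPM with RSL3, against 9.48 and 10.3 CPM in control. Its libraries were apart too, with a log2 fold change of -2.03 ± 0.18 (edgeR adjusted p = 2.51e-05). For Zfp41, a protein with 4 fingers and no KRAB match, the levels were 3.42 and 2.21 CPM with RSL3, against 11.1 and 11.8 CPM in control. Its log2 fold change was -2.02 ± 0.22 (edgeR adjusted p = 9.29e-05).

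Zfp961 fell by 1.80 on the log2 scale, to 4.31 and 3.48 CPM with RSL3, against 15.8 and 11.3 CPM in control. Zfp251 had the largest level of these 8 in control cells, with 13.9 and 14.1 CPM in RSL3 cells, against 41.9 and 41.6 CPM in control cells. The 4 libraries showed almost no spread within a group, and the log2 fold change was -1.58 ± 0.12 (edgeR adjusted p = 1.1e-05). Zfp12 and Zfp866 fell by 1.59 and 1.56. For all 8 the RSL3 libraries were the lowest of the 8 libraries. The values of Zfp958, Zfp748, Zfp12 and Zfp866 were not all whole, so reads shared with copies enter them.

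**Figure D1:**
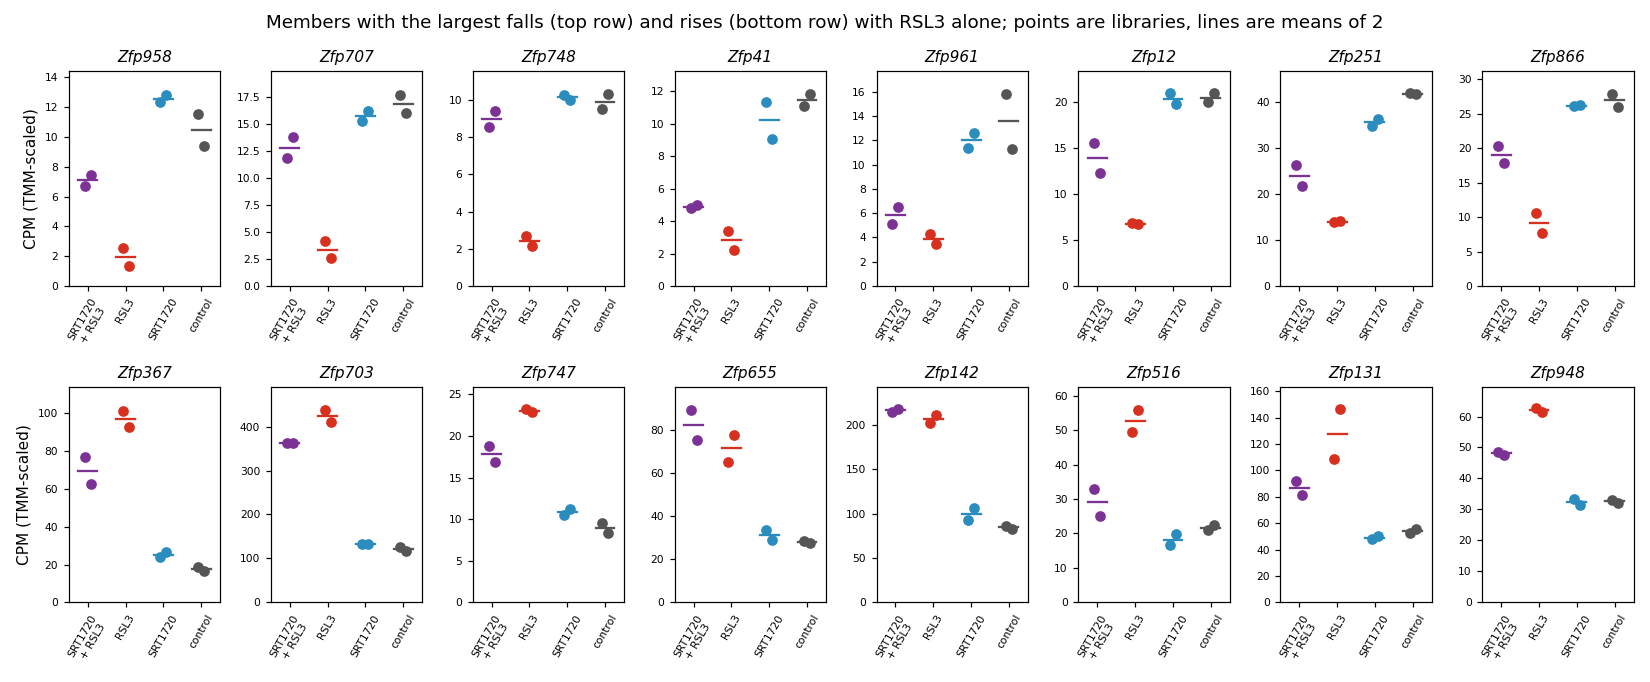
Level in CPM (TMM-scaled, linear axis that starts at 0) of the 8 members with the largest falls (top) and the 8 with the largest rises (bottom) in RSL3 against control. Each point is a library and each line the mean of 2; in the top row the RSL3 points are the lowest in every panel, and Zfp703 reaches 438 and 411 CPM with RSL3 against 126 and 117 CPM in control.

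Promoter sequences are shown for members that lie at both ends of the RSL3 response. They are RefSeq sequences of build GRCm38.p6, 250 bases before to 50 bases after a gene's start, and 134 of the 171 members had an entry. Capitals mark a match to one of 8 motifs searched on both strands. Among the members that fell, Zfp748 carries the reverse complement of ACTACANNT, a core of the site of the promoter factor Zfp143, 23 bases before its start, and no motif searched was found in the other 2 windows.
Zfp958 promoter, chr8:4612920-4613219, plus strand: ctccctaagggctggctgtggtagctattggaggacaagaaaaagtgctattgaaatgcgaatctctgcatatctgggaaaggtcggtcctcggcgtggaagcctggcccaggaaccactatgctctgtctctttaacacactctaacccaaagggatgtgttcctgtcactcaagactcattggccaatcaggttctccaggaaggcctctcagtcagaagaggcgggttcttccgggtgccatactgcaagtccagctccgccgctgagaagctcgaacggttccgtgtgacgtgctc
Zfp748 promoter, chr13:67553103-67553402, minus strand: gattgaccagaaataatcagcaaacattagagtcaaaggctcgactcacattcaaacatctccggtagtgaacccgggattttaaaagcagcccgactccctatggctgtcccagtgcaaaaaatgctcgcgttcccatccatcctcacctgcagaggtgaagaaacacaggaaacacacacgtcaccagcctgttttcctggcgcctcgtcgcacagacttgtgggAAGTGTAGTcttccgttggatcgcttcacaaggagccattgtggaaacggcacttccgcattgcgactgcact
Zfp961 promoter, chr8:71950816-71951115, plus strand: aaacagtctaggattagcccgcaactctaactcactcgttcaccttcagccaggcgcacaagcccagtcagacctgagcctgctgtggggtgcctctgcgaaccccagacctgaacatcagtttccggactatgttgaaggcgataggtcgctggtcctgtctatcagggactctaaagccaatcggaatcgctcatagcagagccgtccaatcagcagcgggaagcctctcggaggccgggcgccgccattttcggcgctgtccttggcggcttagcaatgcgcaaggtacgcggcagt
Among the members that rose, Zfp747 carries an E-box (CACGTG) and Zfp655 an ETS motif (CCGGAAGT), and Zfp367 none of the 8.
Zfp367 promoter, chr13:64153150-64153449, minus strand: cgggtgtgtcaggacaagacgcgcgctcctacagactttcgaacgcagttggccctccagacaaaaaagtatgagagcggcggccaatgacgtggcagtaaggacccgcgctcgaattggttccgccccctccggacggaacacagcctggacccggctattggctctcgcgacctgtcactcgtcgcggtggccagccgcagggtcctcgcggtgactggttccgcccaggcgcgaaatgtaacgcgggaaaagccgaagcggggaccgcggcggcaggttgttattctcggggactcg
Zfp747 promoter, chr7:127376001-127376300, minus strand: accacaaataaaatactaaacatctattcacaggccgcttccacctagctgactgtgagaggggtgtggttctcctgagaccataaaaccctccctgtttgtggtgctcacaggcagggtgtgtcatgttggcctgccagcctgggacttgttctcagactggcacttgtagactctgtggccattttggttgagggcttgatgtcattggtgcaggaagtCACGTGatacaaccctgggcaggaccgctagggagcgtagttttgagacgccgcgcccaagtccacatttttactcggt
Zfp655 promoter, chr5:145231492-145231791, plus strand: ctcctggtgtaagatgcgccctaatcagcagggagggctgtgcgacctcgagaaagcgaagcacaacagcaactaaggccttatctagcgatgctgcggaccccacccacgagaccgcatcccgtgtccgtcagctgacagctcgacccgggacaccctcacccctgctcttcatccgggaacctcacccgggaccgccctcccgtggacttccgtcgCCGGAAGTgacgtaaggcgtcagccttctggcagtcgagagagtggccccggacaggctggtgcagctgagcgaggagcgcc
The Zfp143 core was in 20 of the 134 member promoters (14.9%), where 5.19% of 14098 promoters of the table's genes hold it. It was found in 17% of the promoters of members that fell and in 23.8% of those of members that rose. CCGGAAGT was in 10.4% of member promoters and 6.43% of all, and the NRF1 motif GCGCATGCG in 6.72% and 2.9%. The CRE TGACGTCA was in 2.99% of member promoters and 2.76% of all, the YY1 motif AAGATGGCG in 4.48% and 2.38%, and CACGTG in 8.21% and 9.02%. The heat shock element GAANNTTC was in 8.96% and 6.41%. The AP-1 motif TGANTCA was in 4.48% of member promoters and 6.12% of all. Some of these motifs can overlap, and a match is a description of letters, not of binding. The median GC content of these windows was 53.3% in members with a KRAB box, 61.3% in members without and 59% over all genes.

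The 8 members with the largest rises were Zfp367, Zfp703, Zfp747, Zfp655, Zfp142, Zfp516, Zfp131 and Zfp948. Zfp367, a transcription factor with 2 fingers, had 101 and 92.7 CPM in RSL3 cells, against 18.8 and 16.7 CPM in control cells. The groups were far apart, with a log2 fold change of 2.45 ± 0.14 (edgeR adjusted p = 1.44e-06), the largest rise among the members. Zfp703, a corepressor known as an oncogene in luminal breast cancer in human, had 438 and 411 CPM in RSL3 cells, against 126 and 117 CPM in control cells. Its libraries did not overlap, and the log2 fold change was 1.81 ± 0.09 (edgeR adjusted p = 6.55e-07). Zfp747, a KRAB protein with 10 fingers, had 23.2 and 22.9 CPM in RSL3 cells, against 9.53 and 8.36 CPM in control cells. It was 1 of only 4 KRAB members that rose, with a log2 fold change of 1.37 ± 0.13 (edgeR adjusted p = 4.35e-05). Zfp142, whose protein has 37 fingers, the most of any member, had 203 and 211 CPM with RSL3, against 85.8 and 82.9 CPM in control. It rose by 1.29 ± 0.10 on the log2 scale (edgeR adjusted p = 1.02e-05).

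Zfp655, known in human as a partner of the signalling protein VAV, stood at 65.1 and 77.7 CPM with RSL3, against 28.5 and 27.4 CPM in control. Zfp516, an activator of the brown fat gene Ucp1, had 49.4 and 55.97 CPM with RSL3, against 21.0 and 22.4 CPM in control. Zfp131, a BTB zinc finger factor, had 109 and 146 CPM with RSL3, against 52.7 and 55.9 CPM in control. In each of these 3 genes both RSL3 libraries lay above both controls, with log2 fold changes of 1.35, 1.28 and 1.23. Zfp948, a KRAB protein with 15 fingers, rose by 0.93.

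The calls divided by KRAB box. Of the 71 members with a KRAB box, 39 fell (54.9%) and 4 rose (5.63%) with RSL3, with a median log2 fold change of -0.52. Of the 99 members without, 19 fell (19.2%) and 23 rose (23.2%), with a median of -0.08. Over all genes tested 17.5% were called lower and 18.3% higher, so the shares of members without the box lay near those of all genes. Scaled by library size only, 54 KRAB members fell and 3 rose, and 51 of the others fell and 11 rose. In that setting 37.1% of all genes tested were called lower and 9.67% higher, so the balance turned for all genes as well as for the others. The summed level of the KRAB members was 943.6 and 866 CPM in RSL3 cells, against 1217 and 1176 CPM in control cells. The summed level of members without the box was 4822 and 4787 CPM in RSL3 cells, against 4096 and 4112 CPM in control cells. As shares of raw counts, KRAB members took 0.0852% and 0.0777% with RSL3, against 0.136% and 0.127% in control, and the others 0.435% and 0.43%, against 0.456% and 0.444%, so the direction of the others turns. The sum over all members was thus higher with RSL3 under TMM (5830 and 5756 CPM, against 5366 and 5363 CPM in control) but lower as a share of raw counts (0.526% and 0.517%, against 0.598% and 0.579%). Only 19 KRAB members had whole values throughout, and of these 11 fell and 1 rose.

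Several measured features moved with the KRAB split, and their part in it was not tested. The median GC content of the transcript was 43.2% in KRAB members, 50.7% in the others and 49.8% over all genes tested. The median difference between the second and the first RSL3 library was -0.15 (log2) in KRAB members, -0.09 in the others and 0.00 over all genes. GC and length trends were removed from every library in an alternative added after the data had been seen. There 38 KRAB members fell and 4 rose, and 28 of the others fell and 25 rose, where 20.7% of all genes tested fell and 19.3% rose. Level differed too. At a mean raw count of 150 to 300, 25 of 41 KRAB members and 4 of 12 others fell, where 25.6% of all genes of that level did. At 300 to 500, 12 of 20 KRAB members and 5 of 23 others fell, against 26.5% of all genes of that level. From 500 upwards, 2 of 10 KRAB members and 10 of 64 others fell, against 15.6% of all genes, and the median log2 fold change of all members there was 0.04.

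**Figure D2:**
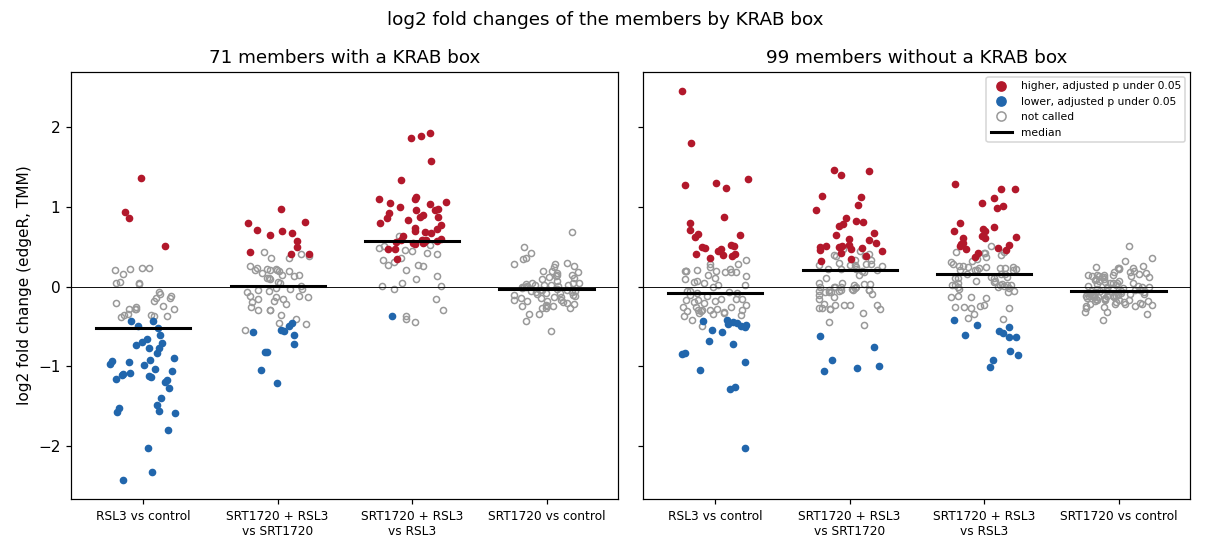
Log2 fold changes (edgeR, TMM) of the 71 members with a KRAB box (left) and the 99 without (right) in 4 comparisons, with filled points for adjusted p under 0.05 and bars at the medians. With RSL3 against control the KRAB median is -0.52 and the other -0.08; with SRT1720 alone no point is filled.

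**Figure D3:**
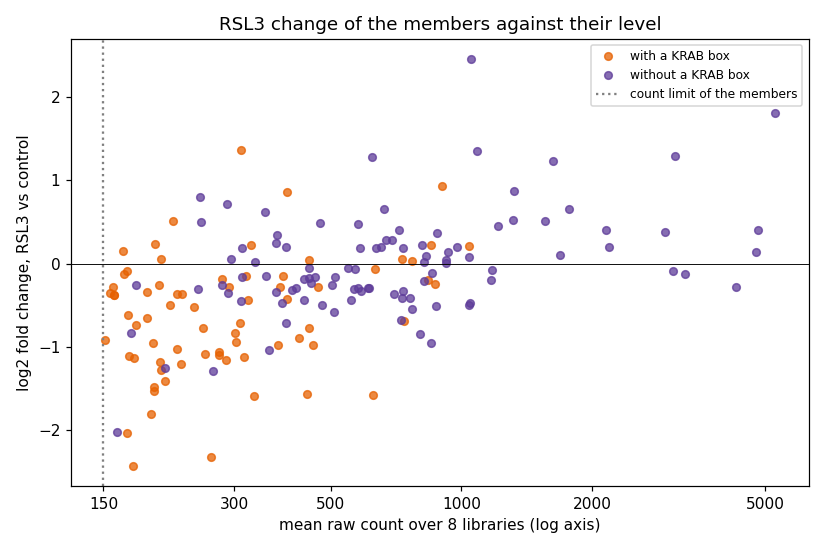
Log2 fold change in RSL3 against control (vertical axis) by mean raw count over 8 libraries (log axis) for members with and without a KRAB box. The 4 falls of over 2 on the log2 scale lie under a mean raw count of 300, and Zfp703 and Zfp367 stand high among the more abundant members.

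Of 188 Zfp-numbered genes under the count limit, 148 were tested, and of these 90 fell and 0 rose with RSL3 by edgeR (2 were higher at an unadjusted p under 0.05, and 0 by limma-voom and by DESeq2). Their median log2 fold change was -1.13. Of 192 tested genes with a KRAB box that are no members, 104 fell and 3 rose, with a median of -1.01. Among 24 tested Zfp genes with a letter in the symbol 9 fell, among 17 Zkscan and Zscan genes 6 fell and 1 rose, and among 40 Zbtb genes 16 fell and 10 rose. Over all genes tested 17.5% were called lower and 18.3% higher. Of all genes with a mean raw count under 150 these shares were 14.4% and 10.8%. Low genes pass a filter on counts through the group in which they are high, and close copies share reads, so these counts are given as values only.

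**Figure D4:**
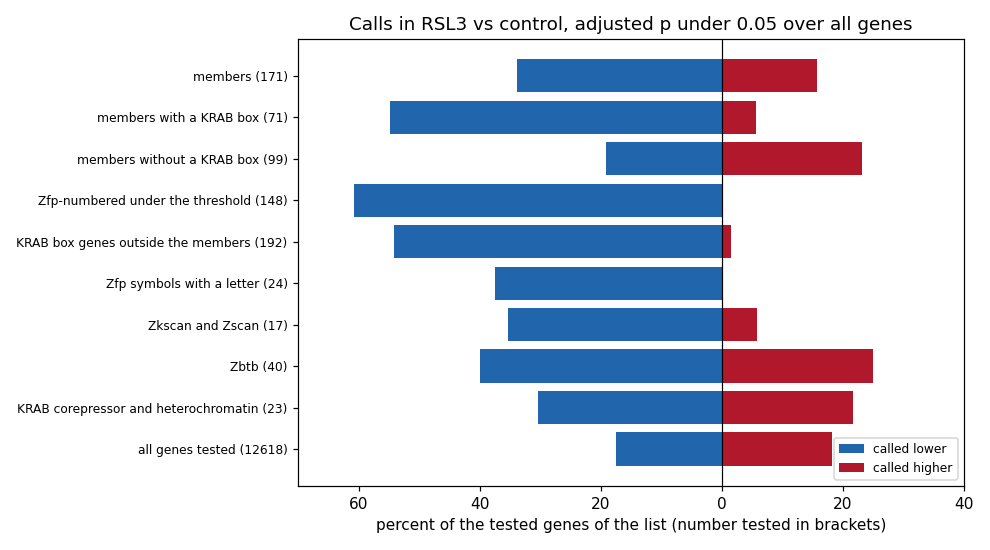
Share of each list called lower (left of 0) and higher (right of 0) in RSL3 against control, in percent of its tested genes. The KRAB members reach 54.9% lower and 5.63% higher, against 17.5% and 18.3% over all 12618 genes tested.

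The members were also divided by position and by finger number. Of 74 members that lie beside another Zfp gene in RefSeq order, 30 fell and 8 rose, and of 97 that do not, 28 fell and 19 rose. These are 40.5% and 28.9% lower, where 17.5% of all genes tested were called lower and 18.3% higher. By number of fingers, 9 of 45 members with up to 5 fell (20%, close to all genes) and 13 rose (28.9%). With 6 to 10 fingers, 16 of 51 fell (31.4%) and 8 rose (15.7%), and with 11 or more, 33 of 74 fell (44.6%) and 6 rose (8.11%). These splits overlap with the KRAB split, since KRAB members had a median of 12 fingers and the others 7.

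Of 23 genes of the corepressor machinery of KRAB proteins, chosen for their known roles, 7 fell (30.4%) and 5 rose (21.7%) with RSL3, where 17.5% of all genes tested were called lower and 18.3% higher. Trim28, the corepressor itself, had 557 and 481 CPM in RSL3 cells, against 438 and 399 CPM in control cells. Scaled by TMM, its RSL3 libraries lay above the controls, with a log2 fold change of 0.31 (edgeR adjusted p = 0.0334). With library size only, the median of all genes lies at -0.27, a shift near the size of this rise. Trim28 was not examined in that setting, so its rise may depend on the scaling. Setdb1, the histone H3 lysine methyltransferase that TRIM28 recruits, had 45.8 and 43.3 CPM with RSL3, against 64.4 and 66.5 CPM in control, and fell by 0.55 (edgeR adjusted p = 0.00143). Suv39h2, another such methyltransferase, had the largest fall of the list, to 8.78 and 9.43 CPM with RSL3, against 17.1 and 16.7 CPM in control.

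Among 5 members known for a silencing target or a phenotype, Zfp961 and Zfp932 fell and the other 3 were not called. Over all genes tested 17.5% were called lower and 18.3% higher. Zfp932, which binds endogenous retroviruses in mouse, had 8.15 and 6.43 CPM in RSL3 cells, against 16.4 and 14.6 CPM in control cells (log2 fold change -1.08, edgeR adjusted p = 0.000438). The imprint keeper Zfp57 had 26.7 and 21.5 CPM in RSL3 cells, against 28.4 and 22.0 CPM in control cells, which overlap. Zfp445, which also keeps imprints, had a log2 fold change of -0.20, and Zfp568, a repressor of a placental Igf2 transcript, of 0.05. Neither of these 2 passed the main test. With library size only, which shifts all genes down, Zfp445 was called lower (log2 fold change -0.48, edgeR adjusted p = 0.012).

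Of 10 members that act on RNA or ribosomes, 2 rose and 2 fell with RSL3, or 20% each way, which is close to the 18.3% higher and 17.5% lower over all genes tested. Zfp598, the ubiquitin ligase that senses collided ribosomes, had 267 and 213 CPM in RSL3 cells, against 185 and 178 CPM in control cells. The groups were apart and the gene rose by 0.41 ± 0.11 (edgeR adjusted p = 0.0196), a call that was lost without either RSL3 replicate 1, control replicate 1 or control replicate 2 (adjusted p of 0.0604 to 0.145). It was also lost with only the libraries of the comparison (0.0955) and with library size only, where the log2 fold change was 0.12 (0.416). Zfp622, a late factor of the large ribosomal subunit, had 98.1 and 84.9 CPM with RSL3, against 59.7 and 56.8 CPM in control, and rose by 0.65 (edgeR adjusted p = 0.00421). Zfp346, which binds double-stranded RNA, fell by 0.58, and Zfp830, linked to splicing, fell by 0.72. The spindle factor Zfp207, the nuclear proteins Zfp106, Zfp638 and Zfp326, the factor Zfp593 of the large subunit, and Zfp706 were not called, with log2 fold changes of -0.28, 0.13, 0.07, 0.22, 0.00 and -0.12. Zfp207 was called lower without RSL3 replicate 2 (adjusted p = 0.0217), without the second libraries of control and RSL3 (0.00519) and with library size only (0.00239). Zfp706 was called lower with library size only (0.00386), and Zfp326 higher after removal of GC and length trends (0.0474).

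Of 18 members that are general or developmental transcription factors, 8 rose and 2 fell with RSL3. Over all genes tested 18.3% were called higher and 17.5% lower. Besides Zfp703, Zfp516 and Zfp131, the rises were those of Zfp292 (0.65), Zfp609, a partner of the cohesin loader in mouse neural cells (0.51), Zfp592 (0.45), Zfp410, the activator of the chromatin remodeller gene Chd4 (0.40), and Zfp384 (0.38). The falls were those of Zfp263 and Zfp687. Zfp263 had 9.36 and 8.59 CPM in RSL3 cells, against 18.6 and 18.3 CPM in control cells, a log2 fold change of -1.04 ± 0.12 (edgeR adjusted p = 0.000167). The groups lay clearly apart. Zfp143, the promoter factor whose motif was searched above, had a log2 fold change of -0.17 and was not called. The other 7, among them the regulators of pluripotency and heterochromatin Zfp281 and Zfp462, lay between -0.29 and 0.20 and were not called either. The calls of Zfp410, Zfp292 and Zfp609 were lost without control replicate 1, those of Zfp292 and Zfp609 also without RSL3 replicate 2, and that of Zfp384 without control replicate 2 or RSL3 replicate 1 (adjusted p of 0.0506 to 0.136). All 4 were lost with only the libraries of the comparison (0.0613 to 0.0691). With library size only, which shifts all genes down, these 4 rises and that of Zfp592 were not called (0.131 to 0.425), and Zfp143, Zfp148, Zfp281, Zfp407 and Zfp462 were called lower (0.00378 to 0.0433). Without RSL3 replicate 2, Zfp219 was called higher (0.0416). After removal of GC and length trends, Zfp148 and Zfp462 were called lower (0.0492 and 0.0491). Of the ubiquitin and SUMO ligases Zfp91 and Zfp451 neither was called, with log2 fold changes of -0.09 and 0.18.

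RSL3 was also given to cells pretreated with SRT1720, and these libraries share none with the comparison above. Against SRT1720 alone, 42 members rose and 17 fell (edgeR), or 24.6% and 9.94% of the members, where 12.3% of all genes tested were called higher and 9.06% lower (21.3% in either direction). The groups did not overlap in 82 members higher and 46 lower with both compounds, where this held for 33.6% and 34.2% of all genes. An unadjusted p under 0.05 was reached by 83 members and by 34.7% of all genes. The median log2 fold change of the members was 0.10, beside -0.01 over all genes. Among KRAB members 12 rose and 11 fell, with a median of 0.00. Among the others 30 rose and 6 fell, with a median of 0.21. With 1 of the 4 libraries of this comparison left out, fewer members were called higher and fewer lower, and the same held over all genes tested. The median over members ran from 0.08 to 0.14 with any one library left out. Scaled by library size only, 24 rose and 36 fell, and the median was -0.10, with all genes at -0.21. In that setting 7.09% of all genes tested were called higher and 24.3% lower.

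Zfp703 had 362 and 364 CPM in cells with both compounds, against 132 and 132 CPM with SRT1720 alone, a log2 fold change of 1.45 ± 0.09 (edgeR adjusted p = 6.09e-06). The groups did not overlap. Zfp367 had 76.6 and 62.5 CPM with both, against 23.9 and 26.6 CPM with SRT1720 alone, a log2 fold change of 1.46. Zfp655 had 89.2 and 75.2 CPM with both, against 33.4 and 28.6 CPM with SRT1720 alone, a log2 fold change of 1.41. These 3 were the largest rises among the members, and each had also risen without pretreatment. Zfp622, the ribosome factor, rose by 1.14 and the spindle factor Zfp207 fell by 0.76 in pretreated cells. Zfp386, a KRAB protein with 9 fingers, had the largest fall, with 11.3 and 11.98 CPM in cells with both compounds, against 28.8 and 25.01 CPM with SRT1720 alone. Its groups were apart, and the log2 fold change was -1.21 ± 0.13 (edgeR adjusted p = 0.000249). Zfp41 and Zfp961 fell by 1.06 and 1.04. Their calls were lost without replicate 1 of the cells with both compounds, and that of Zfp41 also without SRT1720 replicate 1 and that of Zfp961 without SRT1720 replicate 2 (adjusted p of 0.0578 to 0.0741).

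The lists of members called with RSL3 in the 2 settings were compared. Of the 58 members that fell with RSL3 alone, 14 also fell in pretreated cells, which is 24.1% of the first list and 82.4% of the 17 that fell there. Of the 27 that rose with RSL3 alone, 21 rose in pretreated cells as well, or 77.8% of the first list and 50% of the 42. Over all genes tested the shared falls were 35.4% and 68.2% of the lists, and the shared rises 47.9% and 71.3%. All 11 KRAB members that fell in pretreated cells were among the 39 that fell without. Of the 2203 genes tested that fell with RSL3 alone, 27 were called higher in pretreated cells. Among the 58 members that fell, a further 3, picked here after their values were seen, rose in pretreated cells. They were Zfp746, known as PARIS and a repressor of the gene of PGC-1 alpha, the KRAB gene Zfp930, and Zfp110, a partner of the neurotrophin receptor p75. Zfp746 had 57.3 and 53.3 CPM with both compounds and 25.7 and 19.6 CPM with RSL3 alone, against 37.1 and 39.8 CPM with SRT1720 alone and 42.7 and 44.9 CPM in control. Its cells with both compounds were the highest of the 4 groups and its RSL3 cells the lowest. Zfp930 had 27.9 and 25.6 CPM with both and 14.6 and 12.7 CPM with RSL3 alone, against 20.5 and 19.8 CPM with SRT1720 alone and 24.3 and 22.3 CPM in control. The order of its groups was the same. In all 3 genes the call of a rise in pretreated cells was weak: the log2 fold changes were 0.52, 0.41 and 0.41 (edgeR adjusted p of 0.0185 to 0.0345). These calls were lost without any one of the 4 libraries compared (adjusted p of 0.0732 to 0.205) and with library size only (0.0923 to 0.237). By DESeq2 those of Zfp930 and Zfp110 were lost too (0.069 and 0.0691). The falls of Zfp746 and Zfp930 with RSL3 alone (-0.95 and -0.77) and their interactions (1.48 and 1.18, tested as described further on) kept their calls without any one library. That of Zfp110 (-0.43) was lost without control replicate 1 or RSL3 replicate 2 (adjusted p of 0.0749 and 0.0626), without the second libraries of both groups (0.0603) and with only the libraries of the comparison (0.0688).

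**Figure D5:**
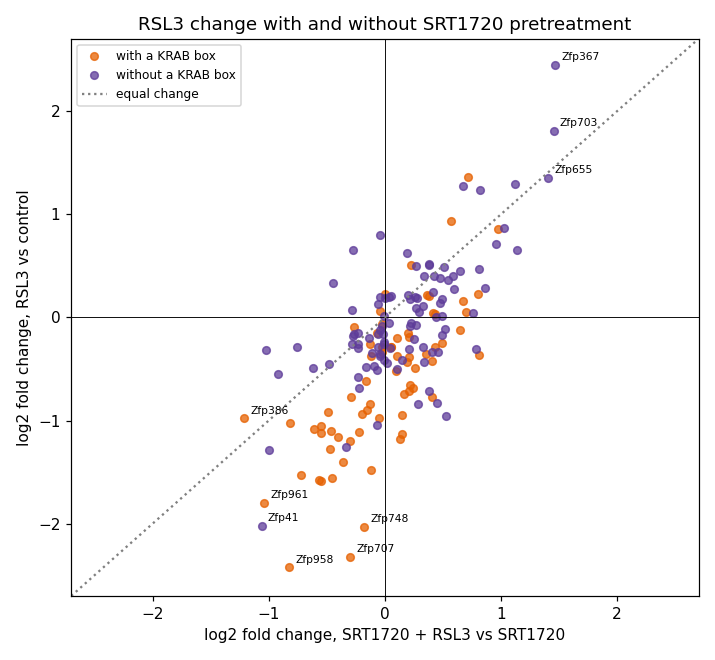
Log2 fold change of each member with RSL3 against control (vertical) and with both compounds against SRT1720 alone (horizontal), which share no library. The dotted line marks equal change; Zfp707 lies far below it (-0.30 in pretreated cells and -2.32 without), as does Zfp748 (-0.18 in pretreated cells and -2.03 without), and Zfp367, Zfp703 and Zfp655 are high on both axes.

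SRT1720 given before RSL3 was set against RSL3 alone to ask what pretreatment changes. Of the members, 68 were higher and 14 lower with both compounds (edgeR), or 39.8% and 8.19%, where 11.4% of all genes tested were called higher and 8.75% lower (20.2% in either direction). The groups did not overlap in 110 members higher and 28 lower, where this held for 30.3% and 29.3% of all genes. An unadjusted p under 0.05 was reached by 109 members and by 34.4% of all genes. The median log2 fold change was 0.34, beside -0.01 over all genes. Among KRAB members 43 were higher and 1, Zfp948, was lower, with a median of 0.57. Among the others 25 were higher and 12 lower, with a median of 0.16. Zfp-numbered genes under the count limit gave 57 higher and 1 lower of 148 tested, where 7.89% and 6.85% of all genes of that level were called. The limits given above for such low genes hold here too. The summed level of the KRAB members was 1248 and 1223 CPM with both compounds and 943.6 and 866 CPM with RSL3 alone, against 1179 and 1167 CPM with SRT1720 alone and 1217 and 1176 CPM in control. Both libraries with both compounds thus lay far above those with RSL3 alone. As shares of raw counts the KRAB members took 0.118% and 0.114% with both compounds and 0.0852% and 0.0777% with RSL3 alone, against 0.128% and 0.126% with SRT1720 alone and 0.136% and 0.127% in control. The order against the 2 groups without RSL3 thus turns with the scaling, and that against RSL3 alone does not. Without replicate 1 or 2 of the cells with both compounds fewer members, KRAB members among them, were called higher, and fewer members were called lower. Without RSL3 replicate 2 fewer were called lower too. The number of calls over all genes tested fell in each of these cases as well. With any one library left out, the median over members ran from 0.31 to 0.43.

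The largest differences between both compounds and RSL3 alone belonged to 3 of the genes with the deepest falls, and the comparisons share the RSL3 libraries. Zfp707 had 11.8 and 13.8 CPM with both compounds and 4.15 and 2.58 CPM with RSL3 alone, against 15.3 and 16.2 CPM with SRT1720 alone and 17.7 and 16.1 CPM in control. Its RSL3 libraries were by far the lowest of the 8, and the log2 fold change of both compounds against RSL3 was 1.93 ± 0.21 (edgeR adjusted p = 0.000347). Zfp748 had 8.53 and 9.4 CPM with both and 2.68 and 2.16 CPM with RSL3 alone, against 10.3 and 10.01 CPM with SRT1720 alone and 9.48 and 10.3 CPM in control. The log2 fold change was 1.89 ± 0.18 (edgeR adjusted p = 0.000202). Zfp958 had 6.73 and 7.43 CPM with both and 2.52 and 1.37 CPM with RSL3 alone, against 12.3 and 12.8 CPM with SRT1720 alone, a log2 fold change of 1.86 over RSL3 alone. In this gene the cells with both compounds lay between those with RSL3 alone and those with SRT1720 alone. Zfp57, the imprint keeper, had 30.9 and 38.8 CPM with both compounds, against 26.7 and 21.5 CPM with RSL3 alone. Its log2 fold change of 0.53 passed narrowly (edgeR adjusted p = 0.0471), and the call was lost by limma-voom (0.0507) and without RSL3 replicate 2 or any library of SRT1720 or of both compounds (0.0624 to 0.312). It was also lost with only the libraries of the comparison (0.0747), after removal of GC and length trends (0.072) and without the second libraries of control and RSL3 (0.0702).

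The members most lowered by pretreatment were Zfp395, Zfp292 and Zfp516. Zfp395, which binds the promoter of the huntingtin gene in human, had 12.6 and 11.3 CPM with both compounds, against 19.97 and 28.3 CPM with RSL3 alone, a log2 fold change of -1.01 ± 0.17 (edgeR adjusted p = 0.0029). Zfp292 had 27.9 and 19.9 CPM with both, against 38.9 and 51.8 CPM with RSL3 alone, a log2 fold change of -0.92. Its call was lost without replicate 2 of the cells with both compounds (adjusted p = 0.101). Zfp516 had 32.8 and 25.2 CPM with both, against 49.4 and 55.97 CPM with RSL3 alone, a log2 fold change of -0.86. In all 3 the libraries of the groups did not overlap. Zfp367, the member with the largest rise under RSL3, had a log2 fold change of -0.48 with both compounds (edgeR adjusted p = 0.0256), a call lost without RSL3 replicate 1, either SRT1720 library or replicate 2 of both compounds (0.0505 to 0.213), and with only the libraries of the comparison (0.0575).

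The test of whether the effect of SRT1720 differs with and without RSL3 is the interaction: the log2 difference that SRT1720 made under RSL3 less the one it made without RSL3. The same number is the RSL3 difference in pretreated cells less that in cells without pretreatment. It was positive and called for 33 members and negative for 2 (edgeR), or 19.3% and 1.17%, where 3.46% of all genes were called positive and 2.92% negative (6.37% in either direction). An unadjusted p under 0.05 was reached by 81 members and by 21.2% of all genes. The median over members was 0.33, beside -0.02 over all genes. Of the 33, 22 had a KRAB box and 11 did not. No KRAB member was called negative by edgeR, limma-voom or DESeq2 (0 each, and 2 at an unadjusted edgeR p under 0.05). The number of positive calls rested on single libraries: it fell without any one library other than RSL3 replicate 1. Over all genes tested the number of positive calls fell in these settings too, except without RSL3 replicate 2, where it rose. With any one library left out, the median over members ran from 0.30 to 0.44. The largest interactions were those of Zfp707 (2.02 ± 0.27, edgeR adjusted p = 0.00317) and Zfp748 (1.85 ± 0.23, adjusted p = 0.00236), which kept their calls without any one library. Zfp958 (1.60 ± 0.33, adjusted p = 0.0206) lost it without any library of SRT1720 or of both compounds (adjusted p of 0.0706 to 0.112). The 2 negative calls were Zfp367 (-0.99 ± 0.18, adjusted p = 0.0144) and Zfp651 (-0.71 ± 0.17, adjusted p = 0.0361). That of Zfp367 was lost without SRT1720 replicate 1 or 2 or replicate 2 of both compounds (adjusted p of 0.0619 to 0.0833), and that of Zfp651 without any library of control, SRT1720 or both compounds (0.0506 to 0.153).

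SRT1720 alone, set against control, gave 0 called members in either direction by edgeR, where 1.1% of all genes were called higher and 0.206% lower (1.31% in all). At an unadjusted p under 0.05, 8 members were higher and 6 lower, and 13.3% of all genes reached it. The groups did not overlap in 36 members higher and 47 lower, where this held for 24.8% and 23.1% of all genes. By limma-voom 0 were called, and by DESeq2 1 was called higher, Zfp367. The members with the smallest p were Zfp367 and Zfp532. Zfp367 had 23.9 and 26.6 CPM with SRT1720, against 18.8 and 16.7 CPM in control, a log2 fold change of 0.51 ± 0.13 (edgeR adjusted p = 0.119). Zfp532, a partner of Zfp592 and Zfp687 in a chromatin complex in human, had 12.3 and 12.1 CPM with SRT1720, against 16.1 and 16.6 CPM in control, a log2 fold change of -0.42 ± 0.12 (edgeR adjusted p = 0.143). In both genes the libraries did not overlap, and neither passed the test. The median over members was -0.04, beside 0.00 over all genes.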

How the data were processed

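The 8 libraries were made with a stranded mRNA kit and sequenced on Illumina instruments, per the labels' protocols. Their extraction text also mentions HT1080 cells and lung homogenate, of which no sample was analysed here. The authors deposited 1 table of expected counts (estimated counts that need not be whole) for 17910 genes. Aligner, counting tool and genome build: not given in the sources used here. A column with a bare name was taken as replicate 1 and one with a suffix as replicate 2 of its group. This follows the labels' library names, whose spelling differs except for RSL3.

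Expected counts were rounded, and the main test was that of edgeR 4.0.16 under R 4.3.3 with limma 3.58.1: TMM, filterByExpr by group (12618 genes kept), and a quasi-likelihood fit with 4 group means over all 8 libraries, with 4 residual degrees of freedom. Tests were two-sided, with Benjamini-Hochberg adjustment over all genes tested and a threshold of 0.05. Each SE is the log2 fold change over the square root of F. CPM use TMM-scaled library sizes. The step was tested on simulated data. A value was called whole within 0.005.

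The members and all gene lists were chosen with earlier results of these data known, so no list was tested as a set. Named genes were the 8 largest falls and 8 largest rises with RSL3 among called members without overlap, the 3 largest each way in other comparisons (the 2 smallest p where none passed), the members of 4 role lists, the most abundant member and those at the count limit. Zfp746, Zfp930 and Zfp110, and further comparisons of genes named by this rule, were added after their values had been seen. KRAB boxes were found with a profile of 38 seed sequences (pyhmmer 0.12.3, E-value up to 0.001) in proteins translated from GENCODE M21 transcripts, which also gave lengths and GC content. Neighbours came from the order of RefSeq genes. Alternatives were RLE and library-size scaling, no filter, limma-voom, DESeq2 1.42.0, a replicate block, only the libraries compared, each library left out, and other count limits for members. Removal of GC and length trends, the omission of the second libraries of control and RSL3, a crossed block and a limit to members with whole values were added after the data had been seen.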

Additional observations from a re-analysis of the deposited data

Results flagged for a closer look

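The effect of SRT1720 differed with and without RSL3, by the test of the interaction (edgeR, adjusted p under 0.05), in 13 of the named members. Some were named for the size of their interaction and others after their values were seen, so the number 13 is no result. The interaction was called in 20.5% of all members and in 6.37% of all genes tested. The effect with RSL3 less that without it was positive in Zfp707 (2.02 on the log2 scale, adjusted p = 0.00317), Zfp748 (1.85, adjusted p = 0.00236), Zfp958 (1.60, adjusted p = 0.0206), Zfp746 (1.48, adjusted p = 0.00246), Zfp930 (1.18, adjusted p = 0.00423), Zfp866 (1.10, adjusted p = 0.0154) and Zfp830 (1.10, adjusted p = 0.0183). It was also positive in Zfp12 (1.04, adjusted p = 0.0159), Zfp251 (1.01, adjusted p = 0.00821), Zfp263 (0.97, adjusted p = 0.0106) and Zfp110 (0.83, adjusted p = 0.0151). Those of Zfp110, Zfp866 and Zfp830 were lost without any one library of SRT1720 or of both compounds (adjusted p of 0.053 to 0.112). Those of Zfp12, Zfp251 and Zfp263 were lost without some of these libraries: Zfp12 without either of SRT1720 or replicate 1 of both (0.0684 to 0.0846), Zfp251 without SRT1720 replicate 1 (0.0632), and Zfp263 without SRT1720 replicate 1 or replicate 1 of both (0.0586 to 0.0738). It was negative in Zfp651 (-0.71, adjusted p = 0.0361) and Zfp367 (-0.99, adjusted p = 0.0144). Zfp830, a splicing-linked protein, had 24.1 and 24.8 CPM with both compounds and 13.8 and 9.80 CPM with RSL3 alone, against 17.96 and 19.6 CPM with SRT1720 alone and 19.7 and 19.1 CPM in control. Zfp651 had 11.5 and 11.9 CPM with both and 18.1 and 17.97 CPM with RSL3 alone, against 22.5 and 24.97 CPM with SRT1720 alone and 23.8 and 21.1 CPM in control, so that its cells with both compounds were the lowest.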

How the results depend on the processing

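With RLE size factors, no low-count filter or limma-voom, all 15 counts and medians kept within their limits. Of 86 values of named genes, 85, 85 and 84 kept sign and call; the exceptions were Zfp593, near 0 throughout, and with limma-voom also Zfp57 for both compounds against RSL3. The replicate block, which takes the replicate number as a term, kept all 15 counts and medians within their limits and the sign and call of all 86 gene values, and gave 58 lower and 27 higher members in RSL3 against control, 39 of the lower ones with a KRAB box. Over 8637 genes the differences between the libraries of a pair correlated at 0.71 between control and RSL3. Equal numbers in these groups thus shared a difference, which the main fit by group means does not use. The correlation was -0.29 between control and both compounds, -0.40 between RSL3 and both compounds, and near 0 otherwise. With the numbers of the cells with both compounds crossed, the counts against RSL3 kept within 1.5 times.

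Library size only gave 105 lower and 14 higher members with RSL3 (median -0.54), and 36 lower and 24 higher for both compounds against SRT1720 (median -0.10). It gave a median of 0.40 for both against RSL3, and 1 negative interaction (median 0.41). Over all genes tested 37.1% were then lower and 9.67% higher with RSL3. For both against SRT1720 24.3% were lower and 7.09% higher, and 2.25% of all genes had a negative interaction. DESeq2 called 1 member higher with SRT1720 alone and 4 interactions negative, and lost the rises of Zfp930 and Zfp110 in pretreated cells. Of all genes tested, it called 2.59% higher with SRT1720 alone and 3.8% with a negative interaction. With only the libraries compared, 16 rose with RSL3, 26 fell with both against SRT1720 and 9 were lower with both against RSL3. Of all genes tested in that setting, 12.1% rose, 18% fell and 5.61% were lower in these 3 comparisons, in this order.
With a count limit of 50, 120 members fell with RSL3 (median -0.42), 35 fell with both against SRT1720 (median -0.0311), 111 were higher with both against RSL3 (median 0.47), and 53 interactions were positive (median 0.46). With a limit of 500, 75 members remained, of which 12 fell with RSL3 (median 0.0436) and 3 with both against SRT1720 (median 0.28). With both against RSL3 23 were higher and 9 lower (median 0.23), and 10 interactions were positive and 1 negative (median 0.20). Of all genes of that level, 15.6% fell with RSL3 and 8.29% with both against SRT1720. Against RSL3 11.3% were higher and 9.75% lower. Of interactions over all genes tested, 3.46% were positive and 2.92% negative. Removal of GC and length trends gave 5 negative interactions, where 4.52% of all genes tested had one. Without the second libraries of control and RSL3 the RSL3 median was -0.18. Limited to the 83 members with whole values, 25 fell with RSL3 (median -0.17), and 24 rose and 9 fell with both against SRT1720. Against RSL3 26 were higher with both (median 0.25), and 13 interactions were positive and 1 negative (median 0.23). Each count holds fewer members by construction. The shares of all genes tested were 17.5% lower with RSL3, and 12.3% higher and 9.06% lower with both against SRT1720. Against RSL3 they were 11.4% higher, and for interactions 3.46% positive and 2.92% negative.

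With each library left out in turn, RSL3 against control gave 47 to 65 lower, 18 to 26 higher and a median of -0.27 to -0.20. Both compounds against SRT1720 gave 7 to 23 lower, 17 to 52 higher and a median of 0.08 to 0.14. Both against RSL3 gave 3 to 16 lower, 34 to 79 higher and a median of 0.31 to 0.43. The interaction gave 0 to 8 negative, 8 to 46 positive and a median of 0.30 to 0.44. SRT1720 against control gave 0 in either direction throughout. The number of calls over all genes tested changed in these settings as well. A group left with 1 library is assumed to vary like the others.

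The named genes whose sign turned in RSL3 against control were not called in these settings. With library size only they were Zfp106 (-0.15), Zfp638 (-0.21), Zfp326 (-0.0681), Zfp593 (-0.29), Zfp219 (-0.0932), Zfp335 (-0.18), Zfp217 (-0.0849), Zfp451 (-0.10) and Zfp568 (-0.24). Zfp593 was -0.0012 with RLE and with DESeq2, -0.0038 without a filter, -0.0013 with limma-voom, -0.0192 with only the libraries compared and -0.0234 without GC and length trends. Zfp638 was -0.0019 and Zfp568 -0.027 without those trends, and Zfp638 -0.0376 without the second libraries. With single libraries left out, Zfp106 ran between -0.0445 and 0.2958, Zfp638 between -0.2217 and 0.2998, Zfp57 between -0.2525 and 0.1262, Zfp568 between -0.2240 and 0.2722, Zfp593 between -0.1545 and 0.1219, Zfp91 between -0.3708 and 0.1317, Zfp219 between -0.1889 and 0.4806, and Zfp217 between -0.0784 and 0.4175. The cause of these changes was not tested.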
